A study of Homo sapiens with 6 samples.

Results

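AP-1 is a dimeric transcription factor, and the 7 human genes that encode its FOS and JUN subunits, FOS, FOSB, FOSL1, FOSL2, JUN, JUNB and JUND, were described in slow-cycling and rapid-cycling breast cancer cells. The genes were taken by name from the deposited tables, 7 of 58735 rows, and all 7 were among the 15881 genes with enough counts to be tested. The cells were MDA-MB-231, an established human triple-negative breast cancer line, labelled wild type (WT). Every culture had been stained with PKH26, a membrane dye that is shared out at each division, and grown for 12 days in the same medium before sorting. Slow-cycling cells (SCC, labelled PKH26hi) were the 1% with the strongest dye signal. Rapid-cycling cells (RCC) had moderate dye per the protocol text but are labelled PKH26lo, and no undyed or unsorted sample was among the 6 libraries analysed here. Each group had 3 biological replicates of 1 cell line, each measured by RNA-seq as reads counted per gene.

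FOS and JUN proteins pair through a leucine zipper. JUN proteins can pair with each other, whereas FOS proteins need another partner, typically a JUN protein, to bind DNA. FOS, FOSB, JUN and JUNB are immediate early genes: growth factor and stress signals switch them on within minutes without new protein synthesis, and FOS mRNA decays quickly. FOSL1 and FOSL2 encode FRA-1 and FRA-2, which lack the strong activation domain of FOS, and FRA-1 is known as an abundant subunit in mesenchymal breast cancer lines. JUND is expressed in many resting cells and is known for restraining growth in some of them.

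Libraries held 17655855 to 27831824 counts. Markers of the line fitted its label: VIM, CD44, EGFR, CAV1 and AXL lay between 33.4 and 204 FPKM (counts scaled to gene length and to library size), ERBB2 at 6.88 to 10.2, EPCAM at 1.42 to 2.29, and the hormone receptor genes ESR1 and PGR and the epithelial cadherin CDH1 at no more than 0.0698. Of the other cell types' markers, PTPRC (leukocytes), PECAM1 (endothelium), COL1A1 and PDGFRB (fibroblasts) and GATA3 (luminal cells) reached at most 2.93 FPKM, and the keratin gene KRT8, known in this line too, was at 47.0 to 60.8. None of these 6 was called different by edgeR (unadjusted p under 0.05: 3 higher, 0 lower; DESeq2: 1 higher, 0 lower), and none was at 0 in any library. Their summed FPKM was 61.7 to 67.6 in the SCC libraries and 51.9 to 55.1 in the RCC libraries (5.60 to 6.83 and 4.92 to 5.22 without KRT8), and its part in the results was not tested. The share of counts from mitochondrial genes was 4.45% to 4.75% in SCC and 3.77% to 3.95% in RCC, so it moved with the group, and its part in the results below was not tested. SCC replicate 1 stood apart from the other SCC libraries, with chi-square values over its degrees of freedom of 28.4 and 21.4 against them, where SCC replicates 2 and 3 gave 3.28 against each other.

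FOSB and FOS were far higher in SCC, the 3 JUN genes were higher by smaller folds, and the 2 FRA genes did not pass the test. FOSB was 30.9-fold higher (95% interval 24.2 to 39.4), FOS 8.69-fold (7.52 to 10.05), JUNB 3.49-fold (2.82 to 4.32), JUND 2.57-fold (1.83 to 3.61) and JUN 1.74-fold (1.502 to 2.005). By edgeR's quasi-likelihood test with Benjamini-Hochberg adjustment over all tested genes, 5 of the 7 were called higher at an adjusted p under 0.05 (n = 3 against 3 libraries), against 1.69% of all tested genes. The 7 genes were chosen with earlier results of these data known, so this count is not independent of them. At an unadjusted p under 0.05, 6 of the 7 were higher, FOSL1 among them, as were 1814 of the 15881 tested genes. None of the 7 was called lower, also at an unadjusted p under 0.05 and by DESeq2 (0 in each), against 0.378% of tested genes called lower. The SCC and RCC libraries did not overlap for the 5 called genes, as for 27.8% of tested genes. The median log2 fold change was 1.36 over the 7 and 0.00 over all tested genes. These are bulk sorts, so more cells that express a gene and more RNA per cell cannot be told apart.

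**Figure D1:**
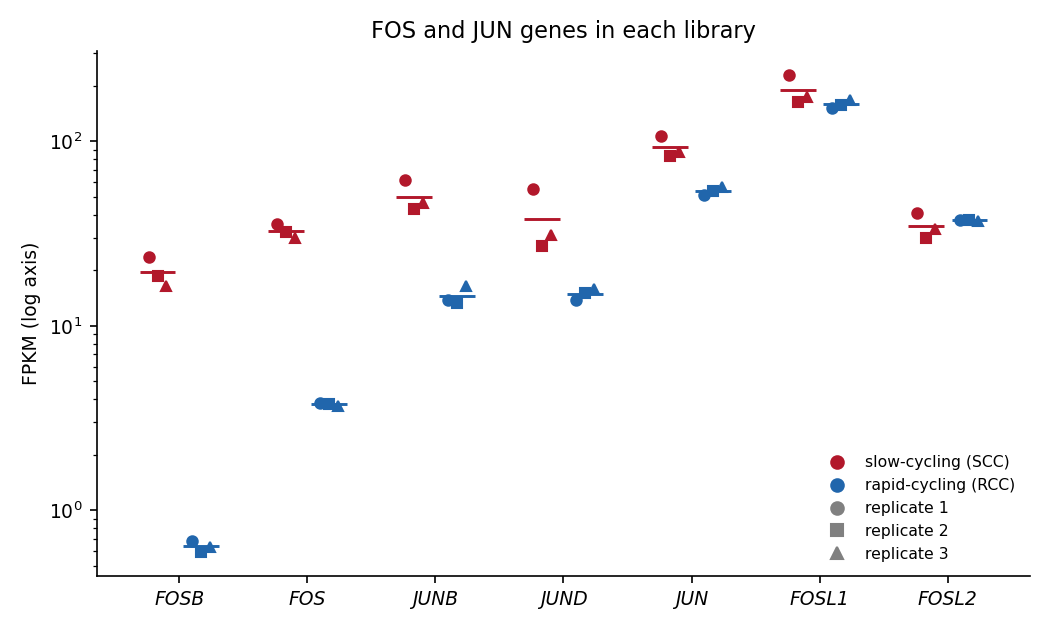
FPKM of each FOS and JUN gene (log axis) in the 3 SCC (red) and 3 RCC (blue) libraries, with marker shape for the replicate and a bar for the group mean. FOSB lies at 0.596 to 0.683 in RCC and 16.4 to 23.7 in SCC, whereas the FOSL1 and FOSL2 points of the groups overlap.

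FOSB (ENSG00000125740, GRCh38 chromosome 19, 45467995 to 45475179, plus strand) encodes a FOS protein and, by splicing, the long-lived truncated form deltaFosB, which counts per gene do not separate. It was at 23.7, 18.7 and 16.4 FPKM in SCC replicates 1 to 3 and at 0.683, 0.596 and 0.632 in RCC. Every SCC library was at least 24.1 times the highest RCC library. The RCC values rested on 88, 69 and 63 counts, against 3608, 2037 and 1931 in SCC. The log2 fold change of 4.95 (standard error 0.16, edgeR adjusted p 4.1e-08) was the highest of all 15881 tested genes. On the log2(FPKM + 1) scale, which compresses low values, the change was 3.64 by limma (adjusted p 1.1e-04), and over all alternatives FOSB stayed called with an adjusted p of at most 0.0015.

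FOS (ENSG00000170345, chromosome 14, 75278774 to 75282230, plus strand), the founding member of the family, was at 35.8, 32.1 and 29.9 FPKM in SCC and at 3.83, 3.78 and 3.68 in RCC. The replicates lay close together, with a coefficient of variation of 9.12% in SCC and 2.07% in RCC. The log2 fold change was 3.12 (standard error 0.095, edgeR adjusted p 4.1e-08), which placed FOS 7th of the tested genes. The gene was called in every alternative fit, with an adjusted p of at most 5.5e-04. By mean FPKM, FOS and FOSB were the least abundant of the 7 in both groups, and they had the 2 largest fold changes.

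FOSL1 (ENSG00000175592, chromosome 11, 65892049 to 65900573, minus strand), which encodes FRA-1, was the most abundant family member in both groups. It was at 230, 164 and 173 FPKM in SCC and at 152, 158 and 168 in RCC, above 98.95% of all tested genes by its mean. The groups overlapped, since SCC replicate 2 was below RCC replicate 3. Its log2 fold change was 0.25 with a 95% interval of 0.002 to 0.51 (edgeR unadjusted p 0.048, adjusted p 0.2501). With the filter lowered to 1 count per gene it was called higher (0.26, adjusted p 0.0315). Without SCC replicate 1 the change was 0.08 (adjusted p 0.356), and over all 17 alternatives the adjusted p lay between 0.0315 and 0.669.

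FOSL2 (ENSG00000075426, chromosome 2, 28392448 to 28417312, plus strand), which encodes FRA-2, was at 41.0, 30.0 and 33.4 FPKM in SCC and at 37.3, 37.5 and 37.2 in RCC. The RCC values were nearly equal, with a coefficient of variation of 0.474%, against 16.2% in SCC. SCC replicate 1 lay above all RCC libraries and the other SCC libraries below them. The log2 fold change was -0.09 with an interval of -0.32 to 0.13 (edgeR adjusted p 0.625). Without SCC replicate 1 it was -0.23, and FOSL2 was then called lower (adjusted p 0.0028), the only alternative of 17 in which any of the 7 genes was called lower.

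Among the JUN genes, JUNB (ENSG00000171223, chromosome 19, 12791496 to 12793315, plus strand), a weaker activator than JUN that can oppose it, was at 61.4, 42.9 and 46.2 FPKM in SCC and at 13.8, 13.3 and 16.5 in RCC. The lowest SCC library was 2.60 times the highest RCC library. Its log2 fold change was 1.80 (standard error 0.14, edgeR adjusted p 5.5e-05), the largest of the JUN genes, and it was called in all 17 alternatives.

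JUN (ENSG00000177606, chromosome 1, 58780788 to 58784327, minus strand), the main activating partner of FOS proteins, was at 107, 83.6 and 87.5 FPKM in SCC and at 51.3, 53.7 and 56.2 in RCC. The groups did not overlap, and the smallest SCC value was 1.49 times the largest RCC value. Its log2 fold change was 0.80 (standard error 0.095, edgeR adjusted p 0.0011). It lost the call in 1 alternative, limma on log2(FPKM + 1) without a filter (adjusted p 0.108).

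JUND (ENSG00000130522, chromosome 19, 18279760 to 18281622, minus strand) was at 55.4, 27.0 and 31.1 FPKM in SCC and at 13.7, 15.1 and 15.8 in RCC. SCC replicate 1 was 1.91 times the mean of the other SCC libraries, and the coefficient of variation of 40.6% in SCC was the largest of the family. The lowest SCC library was still 1.71 times the highest RCC library. The log2 fold change was 1.36 (standard error 0.22, edgeR adjusted p 0.0108). Without SCC replicate 1 it was 0.97 (adjusted p 2.8e-09). JUND lost the call in 6 of 17 alternatives: without RCC replicate 1, 2 or 3 (adjusted p 0.0888, 0.0643 and 0.0702) and in the 3 limma fits on FPKM (0.0831, 0.0840 and 0.291).

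**Figure D2:**
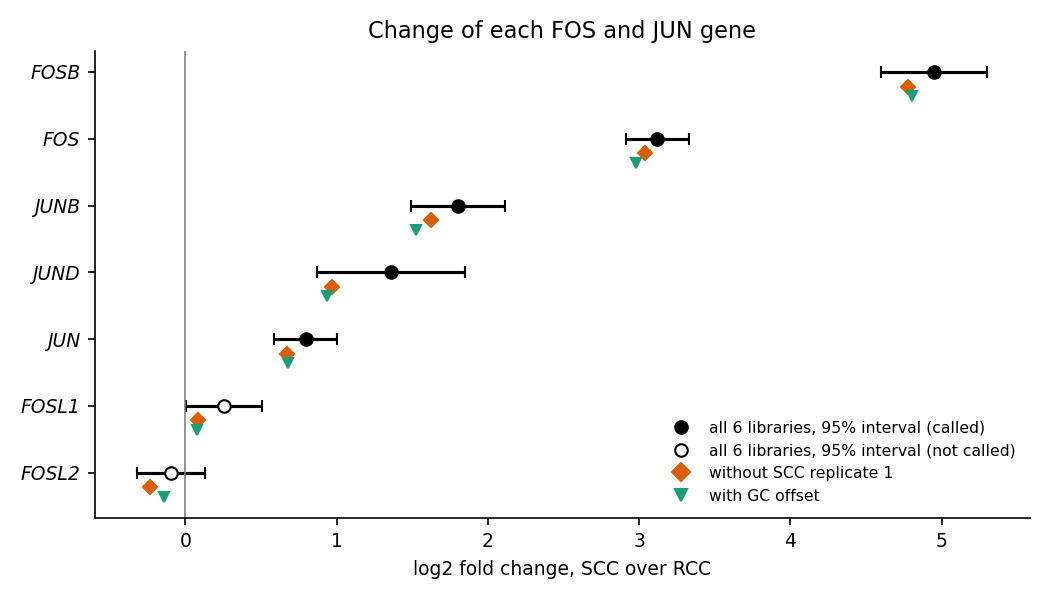
Log2 fold change of SCC over RCC for each gene by edgeR, with its 95% interval (black, filled where called), beside the value without SCC replicate 1 (orange) and with an offset for GC content (green). The order of the genes is the same in all 3 fits, and the 2 alternatives lie below the value from all 6 libraries for each gene.

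The make-up of the family's transcripts differed between the groups. Summed over the 7 genes, FPKM averaged 457 ± 84.9 in SCC against 284 ± 12.7 in RCC (SD, n = 3), and SCC lay apart from RCC (398 to 554 against 273 to 298; exact two-sided permutation p = 0.1). FOS and FOSB together made up 10.7%, 12.7% and 11.1% of this sum in SCC and 1.66%, 1.55% and 1.45% in RCC. FOSL1 made up 41.5%, 41.2% and 41.5% in SCC and 55.8%, 56.0% and 56.3% in RCC, although its own FPKM was not called different. The share of FOSL2 was also lower in SCC, at 7.64% ± 0.31 in SCC against 13.1% ± 0.60 in RCC (SD, n = 3). The share of the 4 FOS-type genes was 60.5% ± 0.92 in SCC and 70.8% ± 0.45 in RCC, so the JUN genes held more of the sum in SCC. JUNB took 11.0% ± 0.17 in SCC and 5.10% ± 0.42 in RCC, JUND 8.07% ± 1.70 and 5.24% ± 0.18, and JUN 20.4% ± 0.95 and 18.9% ± 0.12 (SD, n = 3). None of the 7 shares overlapped between SCC and RCC libraries, and for each the exact two-sided permutation p was 0.1 (adjusted over the 7, 0.1). That is the smallest that 3 against 3 libraries allow, so no such test could pass 0.05. The 7 shares add up to the whole, so higher shares of some genes lower those of others, and they are not independent. How often shares within other sets of genes do not overlap was not computed. Of single tested genes, 27.8% did not overlap. FPKM weights each gene by its length: with CPM in its place the shares differed in the same direction, but the difference (SCC minus RCC, percentage points) went from -5.51 to -13.3 for FOSL2, from -14.7 to -9.13 for FOSL1, from 4.08 to 7.89 for FOSB and from 5.88 to 3.77 for JUNB.

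**Figure D3:**
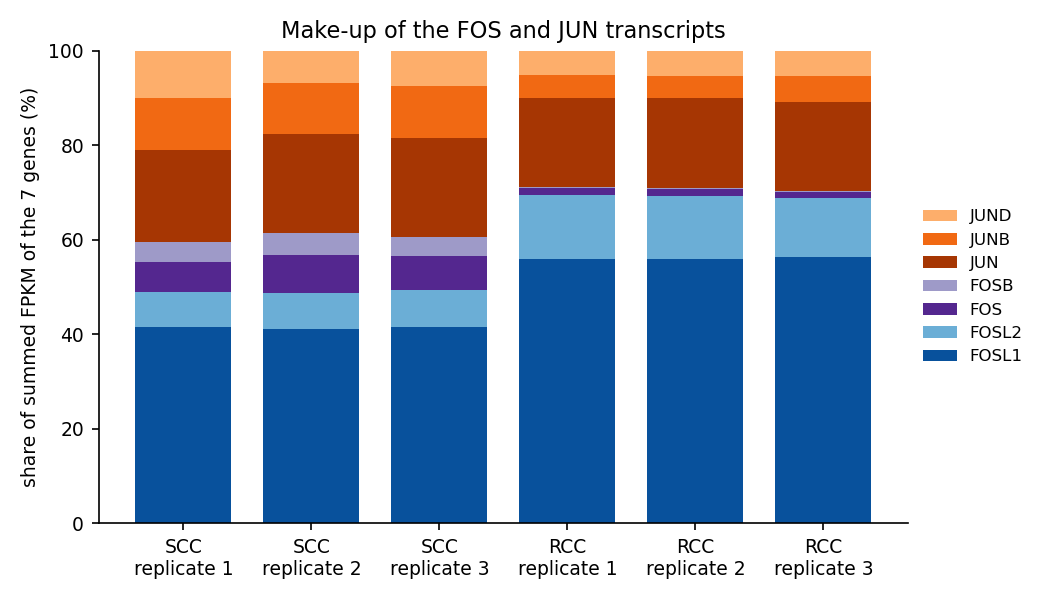
Share (%) of each gene in the summed FPKM of the 7 FOS and JUN genes, 1 bar per library. FOS and FOSB (purple) take 10.7% to 12.7% in the SCC bars and 1.45% to 1.66% in the RCC bars, and FOSL1 (dark blue) 41.2% to 41.5% against 55.8% to 56.3%.

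Within the JUN subfamily, JUN made up 51.8% ± 3.50 of the summed FPKM in SCC and 64.7% ± 1.02 in RCC, and JUNB 27.8% ± 0.34 and 17.4% ± 1.25 (SD, n = 3). Within the FOS subfamily, FOSL1 made up 68.3% ± 1.27 in SCC and 79.2% ± 0.86 in RCC. The summed FPKM of the FOS subfamily was 1.37 times as high in SCC as in RCC, and that of the JUN subfamily 2.17 times. By mean FPKM the order in SCC was FOSL1, JUN, JUNB, JUND, FOSL2, FOS and FOSB, and the ranges of JUNB and JUND, of JUND and FOSL2, and of FOSL2 and FOS overlapped. In RCC the order was FOSL1, JUN, FOSL2, JUND, JUNB, FOS and FOSB, with an overlap for JUND and JUNB only.

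Whether members changed by different amounts was tested on the log2 ratio of 2 members within each library. In all 21 pairs the ratios of the 3 SCC libraries did not overlap those of the 3 RCC libraries, and every exact two-sided permutation p was 0.1 (0.1 adjusted over the 21 pairs), the smallest possible. The pairs share members and are not independent. How often the ratios of other gene pairs do not overlap was not computed. Of single tested genes, 27.8% did not overlap. The log2 ratio of FOSB to FOSL2 differed most, at -0.83 ± 0.17 in SCC and -5.88 ± 0.10 in RCC (SD, n = 3). The log2 ratio of FOS to FOSB was 0.74 ± 0.14 in SCC and 2.56 ± 0.09 in RCC, a difference of -1.82. For FOSL1 to JUN, the 2 most abundant members, the log2 ratio was 1.02 ± 0.07 in SCC and 1.57 ± 0.01 in RCC. The smallest difference was that of FOSL1 to FOSL2, 2.44 ± 0.06 against 2.09 ± 0.07, a difference of 0.34. That difference was present although neither gene was called, with FOSL1 higher relative to FOSL2 in each SCC library than in any RCC library. The GC content of FOSL1 was 60.1% and that of FOSL2 52.9%. With an offset for GC content their log2 fold changes were 0.07 and -0.14, and the part of GC content in the ratios was not tested.

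All 7 genes were higher in SCC replicate 1 than in the mean of SCC replicates 2 and 3, from 1.16 times for FOS to 1.91 times for JUND. In that library the ratio rose with GC content over all tested genes. Among tested genes at 1 CPM or more in RCC, its median was 0.882 for the 3283 genes with a GC content of 40% to 45%, 1.16 for the 2142 genes at 55% to 60% and 1.43 for the 339 genes at 65% to 70%. In the same groups of genes the median log2 fold change of SCC over RCC was -0.09, 0.12 and 0.31. The 7 genes have a GC content from 52.9% (FOSL2) to 69.7% (JUND), computed from their annotated transcripts. With an offset for GC content the log2 fold changes were 4.81 for FOSB, 2.98 for FOS, 1.52 for JUNB, 0.93 for JUND, 0.68 for JUN, 0.07 for FOSL1 and -0.14 for FOSL2. The same 5 genes were called with that offset, and FOSL1 (edgeR adjusted p 0.465) and FOSL2 (0.247) were not. The shares and ratios above were not computed with that offset.

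**Figure D4:**
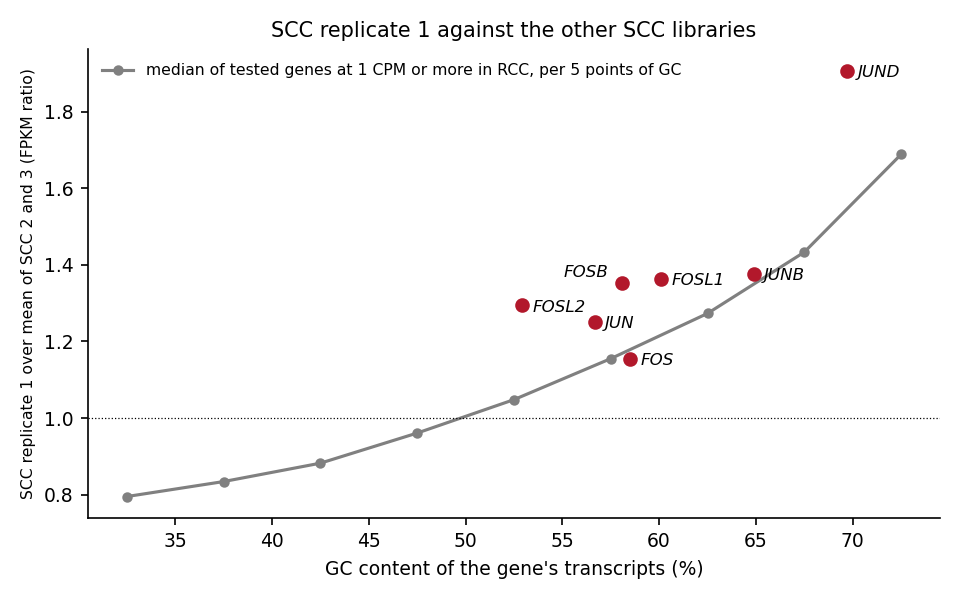
FPKM in SCC replicate 1 divided by the mean FPKM of SCC replicates 2 and 3, against the GC content (%) of each gene's transcripts. Red points are the 7 FOS and JUN genes, and the grey line is the median of tested genes at 1 CPM or more in RCC in steps of 5 percentage points. All 7 points lie above 1, from 1.16 (FOS) to 1.91 (JUND).

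Reads from overlapping genes could enter the counts, since the use of strand is not stated. FOSB lies inside the span of the DNA repair gene ERCC1 on the opposite strand, but 0 of its 5553 exon bases overlap an ERCC1 exon, and ERCC1 was at 7.35 ± 0.11 FPKM in SCC and 7.14 ± 0.26 in RCC (SD, n = 3; log2 fold change 0.05, edgeR adjusted p 0.736). JUNB shares 259 of its 1820 exon bases (14.2%) with HOOK2 on the opposite strand. HOOK2 was at 2.54 ± 0.26 FPKM in SCC and 2.15 ± 0.30 in RCC, with an edgeR adjusted p of 0.302. FOSL2 overlaps the span of the antisense gene FLJ31356 and holds the intronic gene AC104695.3, with 0 shared exon bases and at most 14 counts of either gene in any library. FOS, FOSL1, JUN and JUND overlap no other annotated gene.

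RefSeq promoter sequences (GRCh38.p14, 250 bases before to 50 after the start) matched 6 of the 7 genes, and FOSL1 had no entry. The start is that of RefSeq, which can differ from the edge of the gene span given above. The stretches printed below for FOSL2 and JUN lie wholly inside those spans. That of FOS lies partly inside, and that of FOSB by its last base. The 6 are shown because the genes that differ most, FOSB and FOS, carry the same letters in nearly the same place, and because FOSL2, which was not called, and JUND, at another place, carry one of these too. The 150 bases before the start are given 5′ to 3′ on the gene's strand, with capitals for TGACGT (part of the cyclic AMP response element), for TATAAA (the letters of a TATA box), for the CCAAT box and for TGACATCA (the AP-1 site known from the JUN promoter), where found on either strand.
FOS, chr14:75278678-75278827, plus strand: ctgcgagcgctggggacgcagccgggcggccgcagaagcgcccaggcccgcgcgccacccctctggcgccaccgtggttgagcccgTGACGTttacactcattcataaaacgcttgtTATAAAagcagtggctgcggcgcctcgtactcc
FOSB, chr19:45467846-45467995, plus strand: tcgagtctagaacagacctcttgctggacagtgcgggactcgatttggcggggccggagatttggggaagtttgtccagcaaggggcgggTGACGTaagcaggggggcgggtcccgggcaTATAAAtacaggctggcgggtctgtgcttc
FOSL2, chr2:28392708-28392857, plus strand: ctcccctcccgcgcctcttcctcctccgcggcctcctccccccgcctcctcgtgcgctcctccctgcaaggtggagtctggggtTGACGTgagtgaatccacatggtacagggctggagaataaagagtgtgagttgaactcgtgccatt
JUNB, chr19:12791336-12791485, plus strand: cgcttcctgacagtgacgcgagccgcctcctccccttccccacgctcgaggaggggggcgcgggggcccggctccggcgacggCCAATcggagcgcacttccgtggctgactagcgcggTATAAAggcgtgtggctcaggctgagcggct
JUN, chr1:58784048-58784197, minus strand: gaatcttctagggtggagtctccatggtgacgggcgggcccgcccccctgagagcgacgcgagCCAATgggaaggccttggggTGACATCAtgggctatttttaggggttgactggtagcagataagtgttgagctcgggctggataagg
JUND, chr19:18281623-18281772, minus strand: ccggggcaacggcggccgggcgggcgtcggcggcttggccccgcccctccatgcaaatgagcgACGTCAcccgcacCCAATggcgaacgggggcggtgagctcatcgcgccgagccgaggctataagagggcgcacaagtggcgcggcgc

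Counted from the RefSeq start, TGACGT began at base -64 in FOS, -60 in FOSB and -66 in FOSL2. TATAAA began at -33 in FOS, -30 in FOSB and -31 in JUNB. JUND held the full cyclic AMP response element TGACGTCA from base -200 to -193, before the bases shown, and a further TGACGT on the minus strand from -87 to -82. Among 34943 distinct promoters of this length, 7.97% held TGACGT on either strand. The full element TGACGTCA, which contains it, was in 1.84%. The letters TATAAA were in 11.6% of them. The CCAAT box was in 34.6%, and was found in JUN, JUNB and JUND. TGACATCA (2.61% of promoters) was found in JUN alone, and the AP-1 site TGACTCA (4.96%) in FOSL2 alone, from base 5 to 11 after the start. The CArG box, the site of serum response factor, was in 1.30% of promoters and had no match in the 6 windows. Bases outside these windows were not searched, so whether the 6 genes have a CArG box farther from the start was not tested. The searches for TGACGT and for the letters TATAAA were added after these sequences had been seen.

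The genes whose profile over the 6 libraries lay nearest to each member were found by the root mean square difference of log2 CPM (counts scaled to library size) after subtraction of each gene's mean, among 11055 genes outside the family. Nearest to FOS were the chemokine gene CXCL2 (difference 0.15), ATF3, a stress-induced relative of FOS and JUN (0.26), and CSRNP1, an immediate early nuclear protein gene (0.41). For FOSB the nearest were CXCL2 (0.87), ATF3 (1.06) and the antisense gene AC092053.3 (1.21), farther off than the nearest genes of the other 6 members. JUNB lay near the homeobox gene IRX5 (0.086), the immediate early factor gene EGR1 (0.12) and the Notch target HES1 (0.15). JUN lay near the collagen gene COL6A2 (0.051), the mitochondrial carrier gene SLC25A25 (0.052) and SNED1 (0.071). JUND lay near SOD3, an extracellular superoxide dismutase gene (0.14), IER5L (0.15) and the mRNA decay factor gene ZFP36 (0.18). FOSL1 was nearest to YBX3 (0.015), MAP2K2 (0.021) and MARCKS (0.022), and FOSL2 to PGAM5 (0.026), TBC1D24 (0.035) and MRM1 (0.037). None of these last 6 genes was called in SCC against RCC by edgeR.

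Over all tested genes, 2.07% were called in either direction, and the few calls in the next 3 lists are near that share. By an unadjusted p under 0.05, 1814 of the 15881 tested genes were higher and 1313 lower. Of 14 transcription factors that bind or coactivate at FOS and JUN promoters, 0 were called by edgeR, although 2 were higher and 2 lower by an unadjusted p under 0.05 and 1 higher and 1 lower by DESeq2. The serum response factor gene SRF had a log2 fold change of 0.18 (edgeR adjusted p 0.386), CREB1 of -0.24 (0.130) and MEF2D of 0.43 (0.0514). Of 33 tested genes for kinases of the ERK, JNK and p38 cascades and their RAS and RAF activators, 0 were called by edgeR, although 4 were higher and 3 lower by an unadjusted p under 0.05 and 1 higher by DESeq2. Their median log2 fold change was 0.09 and, without SCC replicate 1, 0.00. Of 14 genes for ubiquitin ligase components and corepressors that act on FOS or JUN proteins, 1 was called higher: TRIB1, a pseudokinase that brings substrates to the ligase COP1, which averaged 38.9 ± 4.76 CPM in the SCC libraries against 15.7 ± 2.29 in RCC (SD, n = 3; log2 fold change 1.31). None of these 14 was called lower (0 by edgeR and 0 by DESeq2; unadjusted p under 0.05: 2 lower). Without SCC replicate 1, edgeR called 1 of the 14 transcription factors higher and 2 lower, and 2 of the 33 kinase genes higher and 1 lower.

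Other bZIP genes, which encode possible dimer partners, included 3 called higher and 0 lower of 28 tested, against 1.69% and 0.378% of all tested genes. By an unadjusted p under 0.05, 10 were higher and 1 lower, and DESeq2 called 5 higher and 0 lower. ATF3 averaged 23.6 ± 1.70 CPM in the SCC libraries against 3.32 ± 0.73 in RCC. The small MAF gene MAFF averaged 101 ± 14.95 against 50.03 ± 1.22, and ATF4, the factor of the integrated stress response, 376 ± 9.56 against 312 ± 2.53 (SD, n = 3). The log2 fold change of ATF4 was 0.27 (edgeR adjusted p 0.0459), and 10 of 17 alternatives did not call it (highest adjusted p 0.242). By the transcription factor families given in the deposited tables, 4 of 35 tested bZIP genes outside the 7 were called higher and 0 lower (11.4%), against 31 higher and 7 lower of 996 tested genes of the other families. The fourth was CREB3L1, named after its values were seen.

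Among AP-1 targets, 6 of 25 tested genes were called higher and 0 lower by edgeR, against 1.69% and 0.378% of all tested genes. By an unadjusted p under 0.05, 11 were higher and 1 lower, and DESeq2 also called 6 and 0. The median log2 fold change was 0.13. CXCL8, whose protein attracts neutrophils, averaged 54.2 ± 13.4 CPM in the SCC libraries against 12.3 ± 2.74 in RCC, and ITGB4, a laminin receptor subunit gene, 154 ± 33.6 against 78.3 ± 1.52 (SD, n = 3). DUSP1, a phosphatase of JNK and p38, averaged 168 ± 19.02 against 85.7 ± 2.85 CPM, and FN1, the fibronectin gene, 676 ± 25.9 against 482 ± 13.8 (SD, n = 3). The other 2, IL6 and VEGFA, had log2 fold changes of 1.66 and 0.39, with IL6 at a low level of 2.91 CPM in SCC against 0.926 in RCC. Several well-known targets were not called: the cyclin gene CCND1 (log2 fold change 0.08, edgeR adjusted p 0.556), the urokinase gene PLAU (0.09, 0.448) and CD44 (0.03, 0.817). MMP1 averaged 1.21 CPM in the SCC libraries against 0.392 in RCC (edgeR adjusted p 0.129), and MMP3, MMP9, MMP10 and MMP13 had too few counts to be tested, with at most 20 in any library.

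ERK feedback genes, which ERK signalling is known to induce, included 1 called higher of 16 (1.69% over all tested genes), IER3, which averaged 266 ± 53.3 CPM in the SCC libraries against 159 ± 7.96 in RCC (SD, n = 3; log2 fold change 0.74). None was called lower by edgeR or DESeq2 (0 in each, also 0 at an unadjusted p under 0.05). Of the 16, 15 had a positive log2 fold change (8021 of the 15881 tested genes), with a median of 0.06, and 2 were higher at an unadjusted p under 0.05. ERRFI1 had a log2 fold change of 0.21 (edgeR adjusted p 0.115), DUSP6 of 0.16 (0.309), SPRY4 of 0.02 (0.913) and PHLDA1 of 0.03 (0.844). Without SCC replicate 1, edgeR called 3 of the 16 higher and 0 lower, with a median of 0.00. In that fit 642 of all tested genes were called higher. IER3 was not called in 5 of 17 alternatives (highest adjusted p 0.262).

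Of 37 tested other immediate early genes, 25 were called higher by edgeR and 0 lower, against 1.69% and 0.378% of all tested genes. By an unadjusted p under 0.05, 31 were higher and 0 lower, and DESeq2 called 27 and 0. The median log2 fold change was 0.95. This list, like the others, was chosen with earlier results of these data known, so its counts are not independent of them. The others were not called, among them MYC (log2 fold change 0.27), KLF6 (0.17), MCL1 (0.10) and BTG2 (-0.02). Those named by the rule were ATF3, the ubiquitin-editing enzyme gene TNFAIP3 (log2 fold change 2.33), CSRNP1 (2.29) and the orphan nuclear receptor gene NR4A2 (2.13). The log2 fold change of ATF3 was 2.81, and those of FOSB and FOS were larger than those of these 4 genes. Heat shock genes included 2 called higher of 15 and 0 lower, against 1.69% and 0.378% of all tested genes, with a median of 0.00. By an unadjusted p under 0.05, 5 were higher and 1 lower, and DESeq2 called 3 and 0. One was HSPA6 (log2 fold change 1.17, edgeR adjusted p 0.0457), at a low level of 3.23 CPM in SCC against 1.44 in RCC. The other was HSPA1B (0.49), whose reads cannot be told apart with certainty from those of its near-identical copy HSPA1A. HSPA1B was not called in 7 of 17 alternatives (highest adjusted p 0.271). Without SCC replicate 1, edgeR called 27 of the 37 immediate early genes, 6 of the 28 bZIP genes and 8 of 26 AP-1 targets higher, and 0, 0 and 1 lower. Of the 228 genes of the 9 lists and the 2 marker lists together, 8 stand in more than 1. The called genes TRIB1, IER3, ATF3, MAFF and DUSP1 were counted in a list above and again among the immediate early genes. TRIB1 was the only call among the ubiquitin ligase and corepressor genes, and IER3 the only one among ERK feedback genes. The part of these lists in the FOS and JUN result was not tested.

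**Figure D5:**
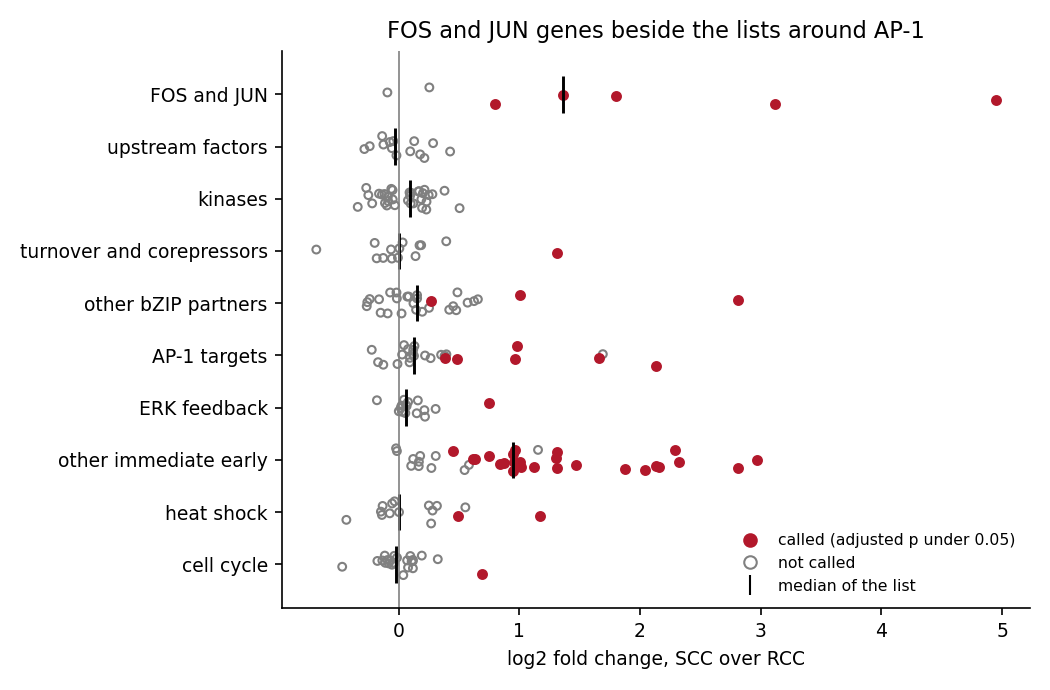
Log2 fold change of SCC over RCC for each tested gene of the FOS and JUN family and of 9 lists around AP-1, with called genes in red and a bar at the median of each list. The medians are 1.36 for FOS and JUN, 0.95 for other immediate early genes and between -0.03 and 0.15 for the remaining lists.

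The sort was meant to separate cells by division rate, and the cell cycle genes included 1 called of 24, against 2.07% of all tested genes in either direction. CDKN1A, which encodes the cell cycle inhibitor p21, averaged 47.6 ± 1.13 CPM in the SCC libraries against 29.6 ± 1.04 in RCC (SD, n = 3; log2 fold change 0.69, edgeR adjusted p 7.5e-04). The proliferation marker gene MKI67 averaged 41.5 ± 3.86 FPKM in the SCC libraries against 38.5 ± 0.78 in RCC, and the mitotic cyclin gene CCNB1 78.4 ± 5.79 against 84.9 ± 2.71 (SD, n = 3), with edgeR adjusted p of 0.401 and 0.388. In this list 0 genes were called lower by edgeR (1 at an unadjusted p under 0.05, and 1 by DESeq2).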

How the data were processed

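The authors deposited whole-number counts and FPKM values per gene for 6 libraries; HISAT2 2.0.5 and featureCounts 1.5.0-p3 are named in the submitters' processing notes, and the genome build, filters and use of strand are not given in the sources used here. All 58735 rows matched GENCODE 29 (GRCh38) by gene ID and position. The deposited FPKM equalled the count divided by gene length and by 1 constant per library.

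Tests on the counts used R 4.3.3 and edgeR 4.0.16 (filterByExpr with a minimum count of 10, TMM scaling, glmQLFit on group, two-sided, Benjamini-Hochberg over 15881 genes). The standard error is the log2 fold change over the square root of F. Single values were compared by exact permutation with SciPy 1.17.1. Alternatives used DESeq2 1.42.0, limma 3.58.1, other scalings and filters, a replicate block, a GC offset (lowess span 0.3, chosen after seeing the data, from transcript sequences because no genome was used here) and each library left out. All gene lists and members were chosen with earlier results of these data known. Named were the 7 members, the 3 nearest profiles of each, genes overlapping a member, up to 4 called genes per list and direction (at least 5 CPM in the higher group, groups not overlapping), and markers; further genes in the text were picked with their values known. For profiles, 0.5 was added to CPM.

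Same-numbered replicates did not deviate together (correlations -0.009, 0.025 and -0.079 over 15881 genes), so numbers were not taken as pairs.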

Additional observations from a re-analysis of the deposited data

How the results depend on the processing

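The libraries were few (3 against 3), and FOSB in RCC rested on the fewest counts of the 7 genes. No alternative turned the sign of any of the 7 log2 fold changes. FOS, FOSB and JUNB were called in all 17. FOSL1 was called only with every gene of at least 1 count tested (0.26), JUN was not called by limma on log2(FPKM + 1) without a filter (0.77), and JUND was not called by limma with 1 added to FPKM (1.22, also 1.22 without a filter) or 0.1 added (1.27). Leaving out each library moved JUND from 0.97 to 1.54 and FOSL2 from -0.23 to -0.01; the cause was not tested. Of the 7, 3 were called higher by limma without a filter, and 0 to 1 lower when a library was left out.

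Counts over all tested genes (268 higher, 60 lower) moved more. They were 995 and 315 with every gene of at least 1 count, 548 and 295 with the GC offset, 480 and 170 by DESeq2, 130 and 36 by limma on log2(FPKM + 1), 117 and 34 on log2(FPKM + 0.1) and 48 and 1 without a filter. Leaving out each library gave 99 to 642 higher and 8 to 343 lower. Genes of the 9 lists called higher (34) were 55 with at least 1 count and 17 by limma without a filter. Those called lower (0) were 1 with upper-quartile scaling, 2 with at least 1 count, 4 with the GC offset, 2 by DESeq2 and 0 to 6 with a library left out.

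With a replicate block, 350 genes were called higher and 106 lower, 701 and 545 with a block and GC offset together; list genes called lower were 1 and 6. The same number of FOS and JUN genes, 5, was called higher with the block. For shares and ratios, the paired sign-flip test cannot go below 0.25. The GC offset was chosen after seeing the data; the planned version from genome sequence was not run.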
